A study of Homo sapiens with 14 samples.

Results

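MicroRNA host genes are the genes from whose long RNAs microRNAs are cut. Here 8 of them, given by symbol, were followed in MDA-MB-231 cells, a human triple-negative breast cancer line with a mesenchymal character, after treatment with 2 compounds that act on ribosome production: MIR222HG, MIR17HG, MIR22HG, MIR155HG, MIR210HG, MIR100HG, MIRLET7BHG and MIR29B2CHG. They are 8 of 60876 annotated genes with a transcript in the tables, and 7 of them are among the 15426 genes with enough reads to be tested. The hosts were chosen by symbol, but with measured values of this experiment known: the list was drawn up with the large fall of MIR222HG after 10 min of CX-5461 already known, so the hosts' values in every comparison that holds the CX-5461 10 min libraries are given below as descriptions, with no test. MIR222HG was the most reduced of the 8 genes. It stood at 22.8 and 34.8 CPM (reads scaled to a common library total) in the 2 control libraries and at 3.18 and 3.61 CPM after 10 min of CX-5461. MIR17HG fell with it, from 4.85 and 4.47 to 1.02 and 0.89 CPM. RBI2 libraries at 120 min held 3.83-fold more MIR29B2CHG RNA than the controls. They also held more MIR17HG, MIRLET7BHG and MIR29B2CHG RNA than the RBI2 10 min libraries, by 2.18-fold, 4.38-fold and 3.16-fold. Each of these RBI2 differences fell short of the thresholds with an offset for transcript length and without some single libraries, as given below. Levels of the same 3 genes were likewise higher at 120 than at 10 min of CX-5461, by 2.87-fold, 1.80-fold and 2.13-fold, given as descriptions.

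Poly(A) RNA was measured in untreated cells and in cells treated with 5 µM of either RBI2, a ribosome biogenesis inhibitor from a small-molecule screen, or CX-5461, an inhibitor of RNA polymerase I, for 10, 30 or 120 min. The labels and the methods call the controls untreated, while another passage speaks of solvent. There were 14 libraries in 7 groups of 2, all from the 1 cell line, and the same 2 control libraries served every comparison with control. The labels do not say that replicates came from separate cultures, so p-values measure the spread between these libraries only. Times are written as labelled, but the names of the deposited tables carry 02, 10 and 30 where the labels read 10, 30 and 120 min. This was not settled, and a time below may stand for an earlier one.

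Libraries held 14112299 to 24849354 assigned reads. Control replicate 2 stood apart. Mitochondrial genes took 20.6% of its reads and 8.14 to 11.3% of those of the other 13, and 1412 genes differed more than 2-fold between the 2 controls, beside 461 to 629 genes within the 6 treated groups. For the 8 hosts, the changes given against control are therefore also given without it. What share of their results it accounts for was not tested. The line's markers were present (CD44 at 472 to 750 TPM, a level per transcript length). ESR1, PGR and CDH1, listed as absent in this line, were at 0.285 TPM or less. EPCAM (11.4 to 22.4 TPM) and GATA3 (1.82 to 3.48 TPM), also listed as absent, were detected.

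A microRNA begins as a hairpin in a long primary transcript. In the nucleus the Microprocessor, made of DROSHA and DGCR8, cuts the hairpin out. XPO5 carries it to the cytoplasm, DICER1 trims it to a short duplex, and an Argonaute protein keeps a single strand, whose bases 2 to 8, the seed, pair with target mRNAs. The libraries counted polyadenylated RNA assigned to transcripts of the host gene, not the hairpin once cut out and not the mature microRNA. No value below is therefore a level of a microRNA. Fewer transcripts made and faster decay cannot be told apart either.

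The 8 hosts hold 20 microRNA genes, 6 of them in MIR17HG and 4 in MIRLET7BHG, and all 20 were found in RefSeq (GRCh38.p14), with 39 mature arms and 31 distinct seeds. The sequences below are the arms by which the responding hosts are best known, from 5′ to 3′, with the seed in capitals. They are shown so that arms of 1 host that share a seed can be read side by side. MIR222HG holds miR-221 and miR-222, studied widely in breast cancer, whose 3p arms share the seed GCUACAU.
hsa-miR-221-3p: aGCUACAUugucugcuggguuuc
hsa-miR-222-3p: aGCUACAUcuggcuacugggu

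MIR17HG holds the miR-17-92 cluster, a growth-promoting cluster amplified in lymphomas. Its 6 hairpins give several seed families, among them AAAGUGC (miR-17 and miR-20a) and GUGCAAA (miR-19a and miR-19b).
hsa-miR-17-5p: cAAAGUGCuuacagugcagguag
hsa-miR-20a-5p: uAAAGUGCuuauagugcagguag
hsa-miR-18a-5p: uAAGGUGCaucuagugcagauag
hsa-miR-19a-3p: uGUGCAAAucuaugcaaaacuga
hsa-miR-19b-3p: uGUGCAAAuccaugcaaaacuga
hsa-miR-92a-3p: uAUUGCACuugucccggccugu

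The let-7 seed GAGGUAG is the only one found in 2 of the hosts. MIR100HG holds it in let-7a-2, beside miR-100 and miR-125b-1, and MIRLET7BHG holds it in let-7a-3 and let-7b. The let-7 family restrains growth genes such as the RAS genes. MIR29B2CHG holds miR-29b-2 and miR-29c, which share the seed AGCACCA and are known for their collagen targets.
hsa-let-7a-5p: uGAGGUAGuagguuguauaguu
hsa-let-7b-5p: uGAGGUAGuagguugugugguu
hsa-miR-29b-3p: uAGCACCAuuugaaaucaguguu
hsa-miR-29c-3p: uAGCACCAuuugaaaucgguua

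The hosts differ in where the hairpin lies relative to the counted RNA. In MIR222HG (chrX:45745210-45770274, minus strand, GRCh38) both hairpins lie in the intron of the transcript MIR222HG-201, which took 98.4% of the gene's reads. In MIR22HG (chr17:1711447-1717174, minus strand) the hairpin lies in an exon of all 19 transcripts in their GENCODE 44 forms, but 18 of the 19 were counted at another length. In MIR17HG (chr13:91347686-91397592, plus strand) the reads fell on MIR17HG-205 (48.5%), which starts 1.19 kb past the last hairpin, and on MIR17HG-203 (47.2%), whose GENCODE 44 form carries all 6 hairpins in its second exon. The form of MIR17HG-203 that was counted is 2845 bases long and the GENCODE 44 form 5511 bases, so the place of the hairpins in the counted RNA is not settled. For MIR29B2CHG-203 (96.8% of reads, 15145 bases counted, 587 bases in GENCODE 44) no placement is given. Whether its reads came from spliced RNA was not settled either. In MIRLET7BHG-201 (75.4% of reads) let-7a-3, miR-4763 and let-7b are exonic and miR-3619 is intronic, and in MIR100HG-201 (67.5% of reads) miR-125b-1 is intronic while let-7a-2 and miR-100 lie outside the transcript. The microRNA genes themselves, annotated as separate transcripts, collected 11 reads at MIR221, 2 at MIRLET7A2, 1 at MIR29C and 0 at the other 17 over all 14 libraries.

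**Figure D1:**
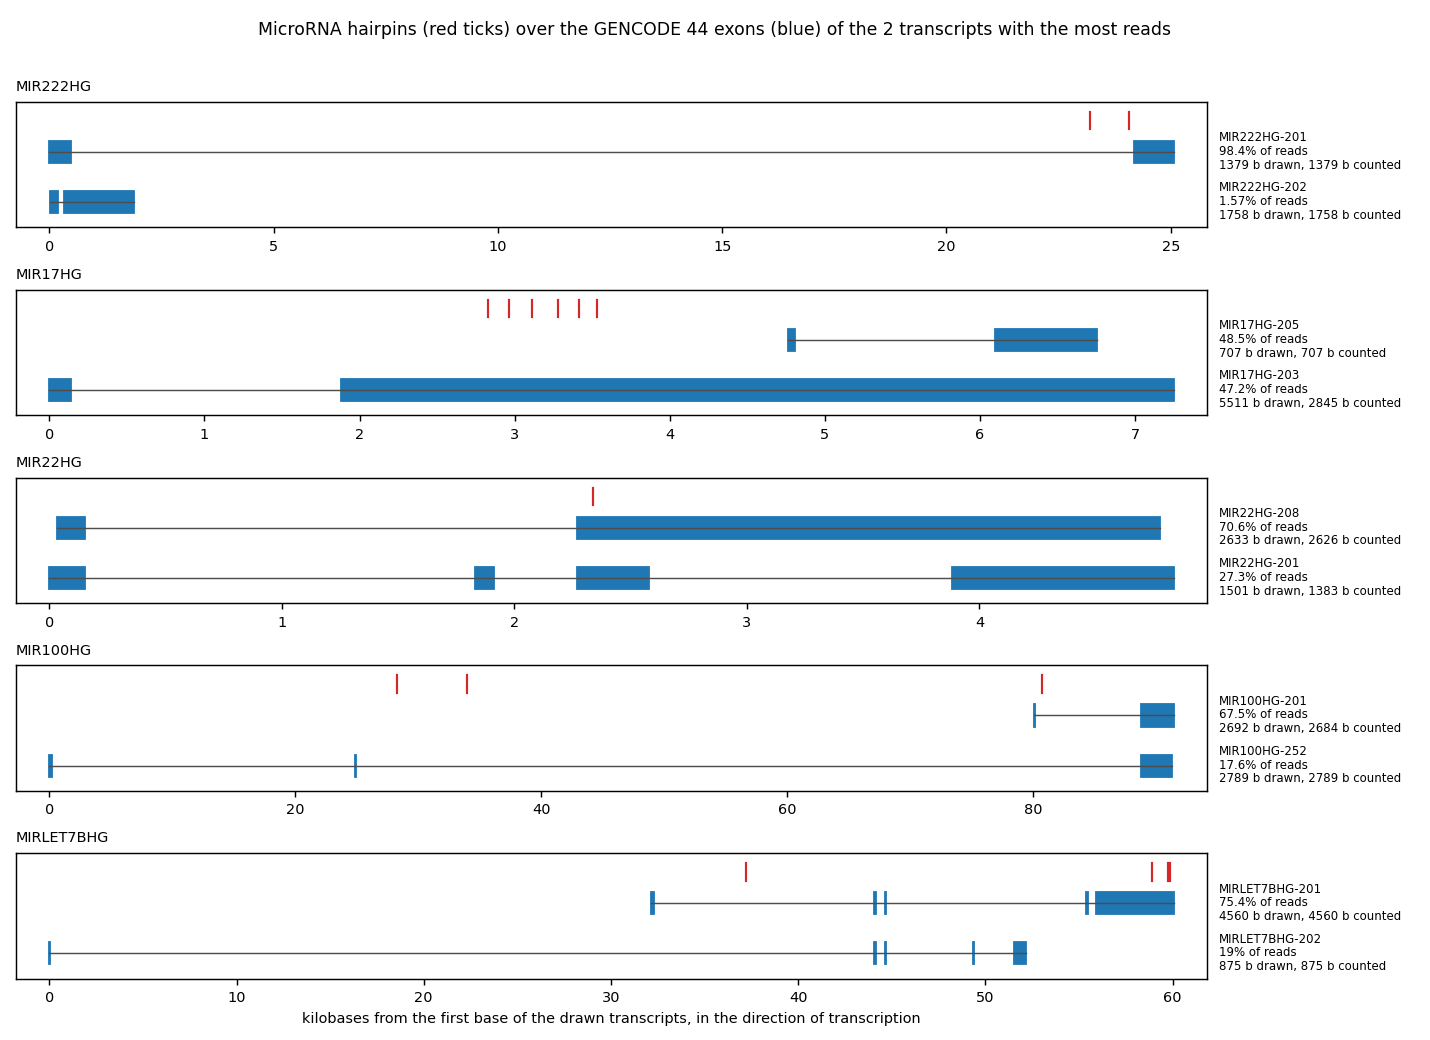
For 5 host genes, the exons (blue boxes) and introns (lines) of the 2 transcripts with the most reads, in kilobases from the first base of the drawn transcripts in the direction of transcription, with microRNA hairpins as red ticks and the share of the gene's reads at the right. The MIR222HG hairpins sit in the intron near its 3′ end, the MIR22HG hairpin sits in an exon, and MIR17HG-203 is drawn in its 5511-base GENCODE 44 form although a 2845-base form was counted.

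On a per-length scale the hosts spanned a wide range of levels. MIR100HG was highest at a mean of 35.5 TPM over the 14 libraries (24.9 to 43.3), followed by MIR222HG at 21.1 TPM (4.74 to 32.9) and MIR22HG at 20.9 TPM (16.7 to 28.9), which overlapped each other. MIR17HG had a mean of 7.40 TPM (1.69 to 13.5) and MIRLET7BHG 1.46 TPM (0.433 to 2.77). MIR210HG (0.592 TPM, 0.194 to 2.14) and MIR29B2CHG (0.164 TPM, 0.034 to 0.57) were near the floor, with 174 and 372 reads in all. The TPM of MIR29B2CHG rests on the 15145 bases counted for MIR29B2CHG-203, which has 587 bases in GENCODE 44. Its place among the hosts by TPM is therefore not settled. MIR155HG, host of a microRNA of activated immune cells, had 0 reads in every library, which allows at most 0.0706 to 0.0995 CPM per group (3 reads, counting error only).

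In each comparison a gene was called when its adjusted p was under 0.05 and its level changed at least 2-fold. After RBI2, 0 of the 7 tested hosts were called against control at 10 min (0.0778% of all genes tested were called), 0 at 30 min (0.0389%) and 1 at 120 min (1.82%). Without the adjustment for multiple tests 1 host passed at 10 min (1.94% of all genes did so) and 1 at 30 min (2.21%), and DESeq2 called 0 at both. After CX-5461, 0 hosts were called at 30 min (0%) and 1 at 120 min (0.0454%). At 30 min 1 host passed without the adjustment (2.15%) and 1 by DESeq2. Set directly against CX-5461 at the same time, RBI2 libraries differed in 0 hosts at 30 min (0.0130%) and 2 at 120 min (1.67%). At 30 min 1 host passed without the adjustment (1.45%) and 0 by DESeq2. Within the RBI2 series 3 hosts were called between 10 and 120 min (0.694%), 0 between 10 and 30 min (0.0583%) and 0 between 30 and 120 min (0.0130%). Without the adjustment the last 2 counts were 1 (1.02%) and 0 (1.60%), and by DESeq2 both were 0. Within the CX-5461 series 0 hosts were called between 30 and 120 min (0.0130%, with 0 by DESeq2 and 0 without the adjustment, beside 1.37% of all genes). The 4 comparisons that hold the CX-5461 10 min libraries are listed apart, since the choice of hosts drew on them and nothing is read from their counts, which are no test: the 2 hosts counted in each were MIR222HG and MIR17HG, against control (beside 1.64% of all genes), against RBI2 10 min (1.04%), against CX-5461 30 min (0.888%) and against CX-5461 120 min (0.888%). Libraries of 2 groups failed to overlap for 33.1 to 63.7% of all genes, depending on the comparison, so that non-overlap alone is a common event here.

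**Figure D2:**
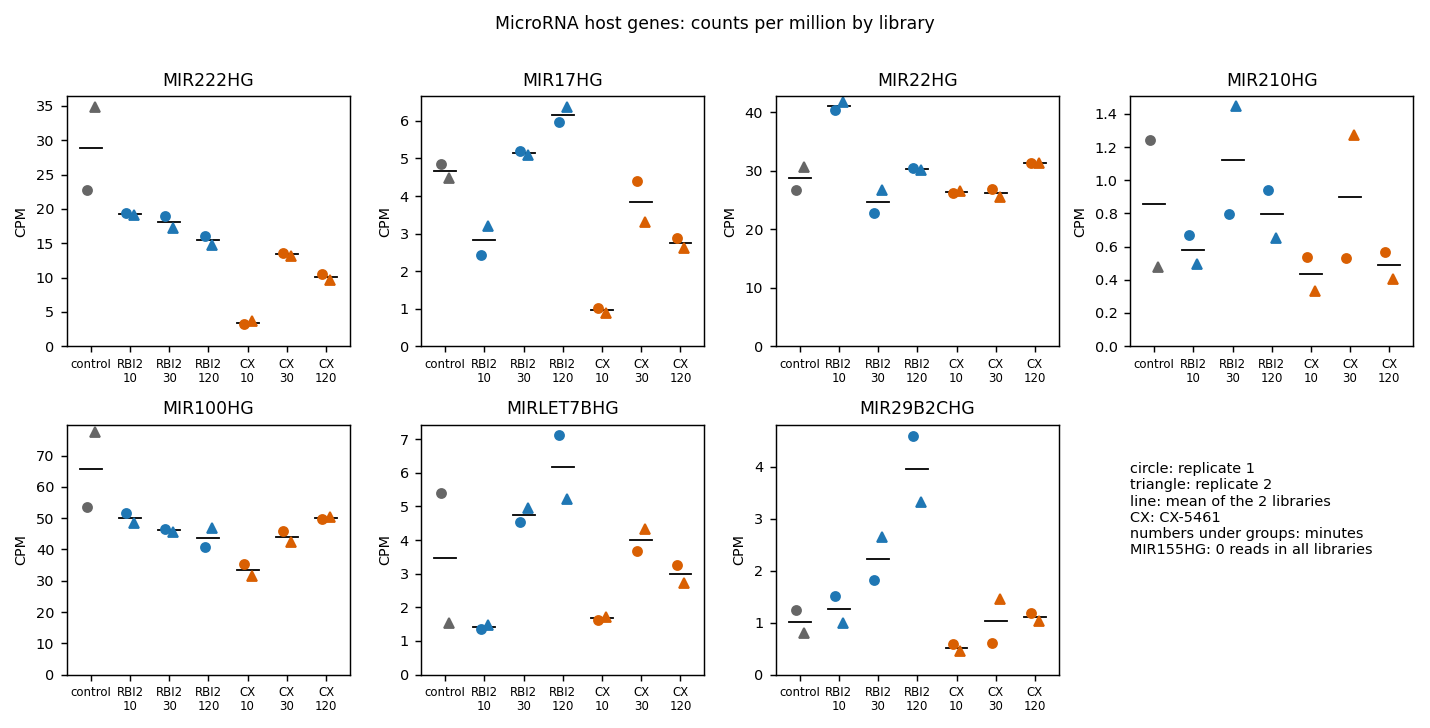
CPM (reads scaled to a common library total) of the 7 detected host genes in each of the 14 libraries, with circles for replicate 1, triangles for replicate 2, lines for the mean of the 2 libraries, grey for control, blue for RBI2 and orange for CX-5461. MIR222HG and MIR17HG are lowest in the CX-5461 10 min libraries, MIR29B2CHG is highest in the RBI2 120 min libraries, and the 2 controls lie far apart for MIRLET7BHG (5.41 and 1.52 CPM).

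MIR222HG was lower than in control at 120 min of either compound, and lowest at the earliest CX-5461 time. Its control libraries held 22.8 and 34.8 CPM. RBI2 libraries held 19.4 and 19.1 CPM at 10 min, 18.9 and 17.2 CPM at 30 min, and 16.0 and 14.8 CPM at 120 min. CX-5461 libraries held 3.18 and 3.61 CPM at 10 min, 13.6 and 13.2 CPM at 30 min, and 10.5 and 9.68 CPM at 120 min. In CPM all 12 treated libraries were below both controls, and each group stood apart from its neighbour in the order of the means, which ran CX-5461 10, 120 and 30 min, RBI2 120, 30 and 10 min, control. At CX-5461 10 min the level was 8.44-fold lower than in the controls (log2 fold change -3.08 ± 0.19 SE, n = 2 per group). It was 3.94-fold lower than in the CX-5461 30 min libraries, so that the level was higher again at 30 min, while still 2.14-fold below control.

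The other comparisons of MIR222HG with control share their 2 control libraries with the one known when the hosts were chosen, so their p-values are not independent of that choice. At CX-5461 120 min the log2 fold change was -1.51 ± 0.17 (adjusted p = 0.0119), a 2.84-fold lower level. At CX-5461 30 min it was -1.10 ± 0.17, with an unadjusted p of 5.2e-05 and an adjusted p of 0.2, in a comparison in which 0 of 15426 genes passed (331 did so without the adjustment). At RBI2 120 min it was -0.90 ± 0.17 (adjusted p = 0.0116), below the 2-fold limit. The changes at RBI2 10 min (-0.58 ± 0.16, adjusted p = 0.223) and 30 min (-0.67 ± 0.16, adjusted p = 0.106) did not pass. Against CX-5461 at 120 min the RBI2 level was 1.53-fold higher (log2 0.61 ± 0.17, adjusted p = 0.0365), with the libraries apart, again short of the 2-fold limit.

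The size of these falls leans on the controls. Without control replicate 2, the higher of the pair, the log2 fold changes were -2.74 for CX-5461 10 min, -0.75 for 30 min (adjusted p = 0.241), -1.20 for 120 min (adjusted p = 0.00244) and -0.57 for RBI2 120 min (adjusted p = 0.0159), with -0.26 at RBI2 10 min (adjusted p = 0.598) and -0.34 at RBI2 30 min (adjusted p = 0.291). Without control replicate 1 they were -3.36, -1.38 (adjusted p = 6.2e-05, called), -1.79 (adjusted p = 2.4e-05) and -1.18 (adjusted p = 0.0001, called). The call at CX-5461 120 min was lost without either of that group's libraries (adjusted p = 0.0923 and 0.172) and with only the 4 libraries of the comparison (adjusted p = 0.737). In the deposited TPM, which also corrects for the effective transcript length in each library, MIR222HG read 29.5 ± 4.81 in control, 28.1 ± 0.93 at RBI2 10 min, 27.4 ± 0.168 at RBI2 30 min and 22.6 ± 1.57 at RBI2 120 min (SD, n = 2), beside 5.02 ± 0.401, 19.7 ± 1.37 and 15.6 ± 0.514 for CX-5461 at 10, 30 and 120 min. On that scale the RBI2 10 and 30 min libraries lay between the 2 controls (32.9 and 26.1 TPM), while those of RBI2 120 min and of all 3 CX-5461 times were below both.

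MIR17HG also reached its lowest level at CX-5461 10 min, and under RBI2 it rose from 10 to 120 min. The controls held 4.85 and 4.47 CPM. CX-5461 libraries held 1.02 and 0.89 CPM at 10 min, 4.39 and 3.31 CPM at 30 min, and 2.89 and 2.61 CPM at 120 min. RBI2 libraries held 2.43 and 3.21 CPM at 10 min, 5.19 and 5.08 CPM at 30 min, and 5.96 and 6.38 CPM at 120 min. In CPM the RBI2 libraries at 30 and 120 min were above both controls and the CX-5461 libraries below both. In TPM this did not hold at 30 min or for CX-5461 at 120 min: the controls read 9.89 and 5.68 TPM, RBI2 30 min 10.5 and 9.87 TPM, CX-5461 30 min 8.24 and 7.32 TPM and CX-5461 120 min 6.0 and 5.84 TPM. Only the RBI2 120 min libraries (11.9 and 13.5 TPM) and the CX-5461 10 min libraries (1.80 and 1.69 TPM) were, as pairs, outside the controls on both scales.

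At CX-5461 10 min MIR17HG was 4.85-fold below control (log2 -2.28 ± 0.22) and rested on 19 and 16 reads. It was 4.0-fold below CX-5461 30 min, so it too stood higher at the later time. At 120 min MIR17HG was 2.23-fold higher after RBI2 than after CX-5461 (log2 1.16 ± 0.19, adjusted p = 0.00751). Against control, neither RBI2 120 min (0.40, adjusted p = 0.142) nor CX-5461 120 min (-0.76 ± 0.19, adjusted p = 0.277) passed. Without control replicate 2 the values against control were -0.80 at RBI2 10 min, 0.08 at RBI2 30 min, 0.34 at RBI2 120 min, -0.32 at CX-5461 30 min and -0.83 at CX-5461 120 min, with adjusted p of 0.265 to 0.96, and -2.33 at CX-5461 10 min. Within the RBI2 series MIR17HG rose 2.18-fold from 10 to 120 min (log2 1.13 ± 0.19, adjusted p = 0.0157). The call between the compounds was lost without CX-5461 120 min replicate 2 (adjusted p = 0.0558), RBI2 120 min replicate 1 (0.0543) or replicate 2 (0.0677). The call within RBI2 was lost without RBI2 10 min replicate 1 (log2 0.95, adjusted p = 0.155), RBI2 120 min replicate 1 (0.0837) or replicate 2 (0.124), and also with an offset for transcript length (log2 1.17, adjusted p = 0.0874). As descriptions, the 10 min difference between the compounds was 1.55 ± 0.22 (1.44 without CX-5461 10 min replicate 2, then no longer past the limits) and the rise within CX-5461 from 10 to 120 min 1.52 ± 0.22 (1.59 and 1.37 without either 10 min library, then no longer past the limits).

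MIR222HG, MIR17HG, MIR100HG and MIR29B2CHG were each lowest in the CX-5461 10 min libraries. The promoters of the pair with the largest differences there are given, as 300 bases from 250 before to 50 after the RefSeq start (GRCh38.p14). The capitals mark the CCAAT box (CCAAT, or ATTGG on the other strand) and the GC box (GGGCGG, or CCGCCC on the other strand). MIR222HG lies on the minus strand at chrX:45770218-45770517 and MIR17HG on the plus strand at chr13:91347437-91347736.
MIR222HG: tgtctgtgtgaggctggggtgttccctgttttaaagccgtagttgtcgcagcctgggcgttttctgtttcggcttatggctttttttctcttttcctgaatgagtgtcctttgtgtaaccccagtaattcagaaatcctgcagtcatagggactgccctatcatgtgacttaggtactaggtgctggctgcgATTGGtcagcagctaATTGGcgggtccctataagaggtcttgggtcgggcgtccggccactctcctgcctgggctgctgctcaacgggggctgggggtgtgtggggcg
MIR17HG: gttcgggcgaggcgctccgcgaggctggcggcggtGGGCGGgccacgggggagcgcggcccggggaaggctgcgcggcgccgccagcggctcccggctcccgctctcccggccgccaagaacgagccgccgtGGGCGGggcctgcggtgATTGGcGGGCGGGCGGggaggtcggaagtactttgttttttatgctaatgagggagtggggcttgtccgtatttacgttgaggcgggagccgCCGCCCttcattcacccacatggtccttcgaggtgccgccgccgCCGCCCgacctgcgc

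The MIR222HG window holds 2 CCAAT boxes and 0 GC boxes, and the MIR17HG window 1 CCAAT box and 6 GC boxes, of which a pair overlaps. Over 35116 RefSeq promoters of this length 34.6% held a CCAAT box and 45% a GC box. The E-box CACGTG, searched likewise and present in 7.26% of promoters, was in neither window. The MIR29B2CHG window held 4 CCAAT boxes and 0 GC boxes, and the 6 RefSeq start windows of MIR100HG held 0 or 1 CCAAT box and 0 GC boxes. These are matches of letters only. The windows follow RefSeq starts, which need not be the starts of the counted transcripts. MIR17HG-205 starts at chr13:91352584, past the MIR17HG window. The MIR29B2CHG window (chr1:207822654-207822953) lies within the span of MIR29B2CHG-203 (chr1:207816076-207869150).

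**Figure D3:**
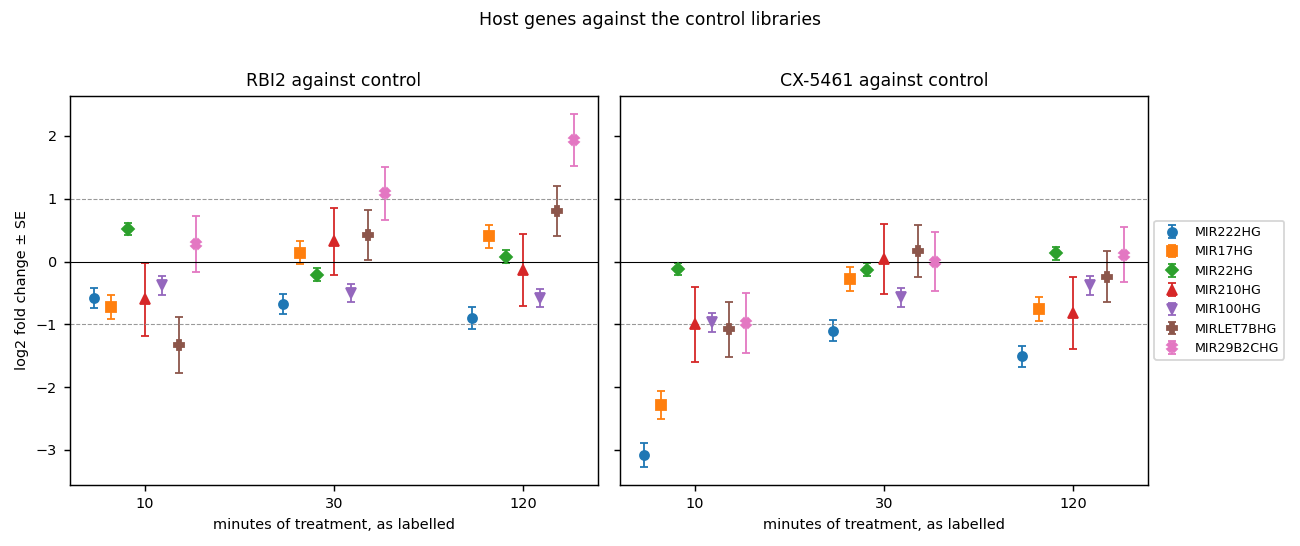
Log2 fold change against control (points, with bars of 1 SE from the fit) for 7 host genes at 10, 30 and 120 min, after RBI2 at the left and CX-5461 at the right, with dashed lines at a 2-fold change. MIR222HG lies below 0 in all 6 comparisons, and at CX-5461 10 min the points run from -3.08 for MIR222HG to -0.12 for MIR22HG.

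MIR29B2CHG rose from 10 to 120 min under RBI2, to a level above control and above CX-5461 at the same time. Its controls held 1.24 and 0.799 CPM. RBI2 libraries held 1.52 and 0.988 CPM at 10 min, 1.82 and 2.64 CPM at 30 min, and 4.60 and 3.33 CPM at 120 min. CX-5461 libraries held 0.593 and 0.445 CPM at 10 min, 0.599 and 1.46 CPM at 30 min, and 1.18 and 1.04 CPM at 120 min. Both RBI2 120 min libraries were above every other library, on 78 and 46 reads.

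At RBI2 120 min MIR29B2CHG was 3.83-fold above control (log2 1.94 ± 0.41, adjusted p = 0.0163), 3.55-fold above CX-5461 at the same time (1.83 ± 0.39, adjusted p = 0.0153) and 3.16-fold above RBI2 10 min (1.66 ± 0.39, adjusted p = 0.0377). These calls sit close to the threshold. The call against control was lost without control replicate 2 (log2 1.67, adjusted p = 0.0599), RBI2 120 min replicate 1 (1.70, 0.114) or replicate 2 (2.14, 0.0611), with the length offset (1.74, adjusted p = 0.109), and with only the 4 libraries of the comparison (adjusted p = 0.301). The call against CX-5461 was lost without RBI2 120 min replicate 1 (adjusted p = 0.115) or replicate 2 (0.0804), or CX-5461 120 min replicate 1 (0.0611) or replicate 2 (0.111). The call against RBI2 10 min was kept only without either control library or either CX-5461 30 min library, with an adjusted p of 0.0555 to 0.214 without any of the other 10, and was also lost with the length offset (log2 2.31, adjusted p = 0.0946) and with the replicate block (adjusted p = 0.0508). At RBI2 30 min the change against control did not pass (1.09 ± 0.42, adjusted p = 0.152), and at CX-5461 10 min it was -0.98 ± 0.48. Without control replicate 2 these values were 0.82 (adjusted p = 0.564) and -1.25. CD46, on the other strand, overlaps the annotated gene but, by their GENCODE 44 positions, none of its counted transcripts.

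MIRLET7BHG could not be placed against control, because the 2 control libraries held 5.41 and 1.52 CPM. RBI2 libraries held 1.34 and 1.48 CPM at 10 min, 4.54 and 4.95 CPM at 30 min, and 7.14 and 5.22 CPM at 120 min. CX-5461 libraries held 1.62 and 1.72 CPM at 10 min, 3.66 and 4.33 CPM at 30 min, and 3.26 and 2.72 CPM at 120 min. Under both compounds the 10 min libraries were lower than all later ones. From RBI2 10 to 120 min the gene rose 4.38-fold (log2 2.13 ± 0.44, adjusted p = 0.0263), on 22 and 24 reads at 10 min and 121 and 72 at 120 min. That call was lost without RBI2 10 min replicate 1 (adjusted p = 0.204) or replicate 2 (0.11), RBI2 30 min replicate 2 (0.0541), or RBI2 120 min replicate 1 (0.147) or replicate 2 (0.124), and with the length offset (log2 1.65, adjusted p = 0.163). At 120 min it was 2.06-fold higher after RBI2 than after CX-5461 (1.04 ± 0.39, adjusted p = 0.0976), which passed without control replicate 1 (adjusted p = 0.00321) or replicate 2 (0.00257). The 3.35-fold difference between RBI2 10 and 30 min did not pass (log2 -1.74 ± 0.44, adjusted p = 0.242), but passed without control replicate 1 (adjusted p = 0.00451) or replicate 2 (0.00342).

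Against control the size of the change in MIRLET7BHG, and in 4 of the 6 comparisons its direction, depended on which control library was kept. RBI2 120 min gave 2.02 without control replicate 1 (adjusted p = 0.00044) and 0.19 without replicate 2. RBI2 30 min gave 1.63 (adjusted p = 0.0016) and -0.20, CX-5461 30 min 1.39 (adjusted p = 0.00401) and -0.42, and CX-5461 120 min 0.98 (adjusted p = 0.0358) and -0.87 (adjusted p = 0.265). RBI2 10 min gave -0.11 and -1.95 (adjusted p = 0.00811), beside -1.33 ± 0.45 with both controls (adjusted p = 0.292). At CX-5461 10 min the values were 0.13 and -1.69, beside -1.08 ± 0.44 with both. A neighbour on the same strand, PRR34-AS1, overlaps the start of MIRLET7BHG, which of the counted transcripts only MIRLET7BHG-202 (19.0% of reads) reaches, so the split of reads is uncertain for that transcript. PRR34-AS1 itself changed by -0.22 to 0.13 against control and was not called in any of the 6 comparisons.

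MIR100HG, the longest host (chr11:122028325-122556721, minus strand), had the most reads of the hosts, and no comparison called it. Controls held 53.6 and 77.6 CPM. RBI2 libraries held 51.7 and 48.6 CPM at 10 min, 46.7 and 45.7 CPM at 30 min, and 40.7 and 46.8 CPM at 120 min. CX-5461 libraries held 35.3 and 31.5 CPM at 10 min, 46.0 and 42.3 CPM at 30 min, and 49.8 and 50.5 CPM at 120 min. In CPM all treated libraries lay below both controls and the CX-5461 10 min libraries below all others, at 1.96-fold under control (log2 -0.97 ± 0.15). In TPM the CX-5461 10 min libraries (26.5 and 24.9) were again the lowest, but every other treated group overlapped the controls (40.3 and 34.0 TPM), with 40.2 and 43.3 TPM at CX-5461 120 min. Without control replicate 1 that value was -1.22 and without replicate 2 -0.68. It passed the limits without control replicate 1 and without CX-5461 10 min replicate 1 (-1.04). At RBI2 120 min the fall of 0.58 ± 0.15 on the log2 scale had an adjusted p of 0.028 and was below the 2-fold limit. It was -0.84 without control replicate 1 (adjusted p = 0.00024) and -0.30 without replicate 2 (adjusted p = 0.0991), and -0.28 with the length offset (adjusted p = 0.198).

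In CPM MIR22HG was the steadiest of the well-counted hosts and the only one that was higher at RBI2 10 min than in every other library. In TPM the group means of MIR22HG ran from 16.9 to 28.5 and those of MIR100HG from 25.7 to 41.8. On that scale MIR22HG was, in proportion, not the steadier of the 2. Controls held 26.8 and 30.6 CPM. RBI2 libraries held 40.4 and 41.8 CPM at 10 min, 22.8 and 26.7 CPM at 30 min, and 30.5 and 30.2 CPM at 120 min. The 6 CX-5461 libraries ranged from 25.6 to 31.4 CPM. RBI2 10 min exceeded RBI2 30 min by 1.66-fold (log2 0.73 ± 0.10, adjusted p = 0.0175) and RBI2 120 min by 1.36-fold (adjusted p = 0.0311), both short of the 2-fold limit. Against control it was 1.43-fold higher (log2 0.52 ± 0.10, adjusted p = 0.0884), with 0.42 (adjusted p = 0.0115) without control replicate 1 and 0.60 (adjusted p = 0.0452) without replicate 2. With the length offset the change was 0.20. WDR81, on the other strand, overlaps the start of the gene, which by GENCODE 44 positions is reached by 1 MIR22HG transcript holding 0.027% of its reads. The libraries were made with a strand-keeping kit, and the strand setting of the counting is not given in the sources used here.

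MIR210HG, host of a microRNA induced by low oxygen, held 6 to 22 reads a library (0.334 to 1.45 CPM). The lowest was at CX-5461 10 min (0.539 and 0.334 CPM) and the highest at RBI2 30 min (0.795 and 1.45 CPM), but every group overlapped its neighbour in the order of means. No comparison called it. Standard errors were 0.54 to 0.62 on the log2 scale, and at this depth its log2 fold change of -1.0 ± 0.60 at CX-5461 10 min could not be set apart from its spread. That value was -0.13 without control replicate 1 and -1.49 without replicate 2.

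Genes with the most similar pattern over the 7 groups were sought among 10569 or 10570 tested genes of at least 5 CPM, by the root mean square (RMS) difference of the group means of log2 CPM after centring. This was done for hosts whose group means spanned at least 1 on the log2 scale, which left out MIR22HG (0.73) and MIR100HG (0.95). MIR210HG (1.14) reached that span only through the CX-5461 10 min group. In the other groups its centred means ran from -0.415 (CX-5461 120 min) to 0.581 (RBI2 30 min). The gene nearest to MIR222HG was MYC (RMS 0.28), the growth-promoting transcription factor, followed by PPP1R10 (0.36), a subunit of a nuclear phosphatase complex, beside a median of 0.91 over all genes compared. MYC had a mean of 185 CPM in control and 33.6 CPM at CX-5461 10 min. MIR17HG was nearest to KLF6 (0.19), a zinc-finger transcription factor that had 133 CPM in control, 85.1 CPM at RBI2 10 min and 33.4 CPM at CX-5461 10 min, and to CDC42EP2 (0.25), an effector of the small GTPase CDC42, with a median of 0.81. MIRLET7BHG was nearest to TIGD5 (0.33) and the heat shock gene HSPA1A (0.36), with a median of 0.70. MIR29B2CHG was nearest to ENSG00000241860 (0.23) and IRGQ (0.24), with a median of 0.82, and IRGQ had 18.9 CPM in control and 46.0 CPM at RBI2 120 min. MIR210HG was nearest to ENSG00000258881 and the nuclear long noncoding RNA NEAT1 (both 0.15), with a median of 0.41, on few reads of its own. The points are 7 group means from 14 libraries that all these genes share. They include CX-5461 10 min, where the fall of MIR222HG was known when the hosts were chosen. At that point the centred values were -1.925 for MIR222HG, -1.87 for MYC and -1.92 for PPP1R10. Likeness to a host is therefore a description, and its RMS beside the median is no test.

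**Figure D4:**
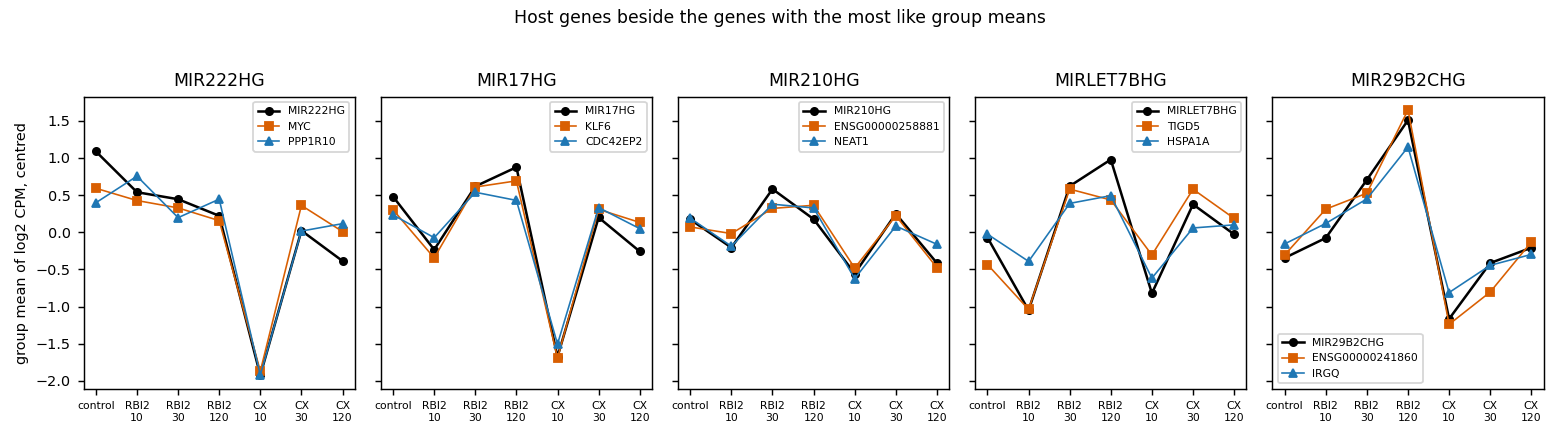
Group means of log2 CPM, each gene centred on its own mean over the 7 groups (control, then RBI2 and CX-5461 at 10, 30 and 120 min), for 5 host genes (black) and the 2 genes with the smallest root mean square difference from each. MIR222HG and MIR17HG share a low point at CX-5461 10 min with MYC, PPP1R10, KLF6 and CDC42EP2, and MIR29B2CHG and IRGQ peak at RBI2 120 min.

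None of the tested genes that act on microRNAs after transcription of the host was called, which is near the share of all genes called. Of 28 microRNA processing and effector genes, such as DROSHA, DGCR8, XPO5, DICER1 and AGO2, 26 were tested. By edgeR 0 were called in any of the 15 comparisons, also by DESeq2 and also with an unadjusted p and the 2-fold limit. Of all genes, 0 to 1.82% were called by edgeR, depending on the comparison. With an unadjusted p and the 2-fold limit 1.02 to 4.19% passed. A count of 0 of 26 lies near those shares, so nothing particular to these genes is read from it. An unadjusted p under 0.05 with no limit on size was met by 1 to 13 of them, most at RBI2 120 min against control, beside 7.79 to 35.9% of all genes over the same comparisons, also most there. Their median log2 fold change ran from -0.20 to 0.27. Of 34 protein-coding genes that host microRNAs in their introns or exons, such as MCM7, SREBF2 and HUWE1, 32 were tested. Under any of the 3 rules with the 2-fold limit 0 were called, again near the shares of all genes just given. An unadjusted p under 0.05 was met by 1 to 14, the most again at RBI2 120 min against control. SND1 is in both lists.

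Of 76 other annotated genes named as microRNA hosts in the same manner, 21 were tested. Against control 1 was called higher and 1 lower at RBI2 120 min, beside 1.42% and 0.395% of all genes. At CX-5461 10 min, again as a description, 2 were lower past the limits, beside 0.888% of all genes. MIR3142HG, host of miR-3142 and miR-146a, had a mean of 1.38 CPM in control, 0.322 CPM at RBI2 120 min (log2 -2.07 ± 0.40, adjusted p = 0.0131) and 0.192 CPM at CX-5461 10 min (-2.80 ± 0.42). These means rested on 25 and 15 reads in control, 6 and 4 at RBI2 120 min and 3 and 4 at CX-5461 10 min. MIRLET7A1HG, another let-7 host, had 6.20 CPM in control and 2.82 CPM at CX-5461 10 min (-1.15 ± 0.26), with 7.68 CPM at CX-5461 120 min. Its change at CX-5461 10 min was no longer past the limits with the length offset (-1.47) or without several single libraries, among them either CX-5461 10 min library. With only the 4 libraries of that comparison neither MIRLET7A1HG (-1.14) nor MIR3142HG (-2.79) was past them. MIR194-2HG had 0.142 CPM in control and 0.789 CPM at RBI2 120 min (2.43 ± 0.56, adjusted p = 0.0201), on 2 reads in each control library and 12 in each RBI2 120 min library. That call was lost without control replicate 2 (2.58, adjusted p = 0.0696), without either RBI2 120 min library, with the length offset and by DESeq2 (adjusted p = 0.0637). Without control replicate 2 MIR3142HG gave -2.24 at RBI2 120 min (adjusted p = 0.0236) and -2.97 at CX-5461 10 min, and MIRLET7A1HG -1.52 at CX-5461 10 min, beside -0.61 without control replicate 1. The MIR3142HG call at RBI2 120 min was lost without either RBI2 120 min library (adjusted p = 0.0927 and 0.0827) and with the length offset (0.0682). With only the 4 libraries of the comparison neither MIR194-2HG nor MIR3142HG passed at RBI2 120 min (both adjusted p = 0.301). Between the compounds at 120 min 1 of these genes was called higher after RBI2 and 1 lower, beside 1.27% and 0.402% of all genes. MIR3142HG was the lower, at 1.08 CPM after CX-5461 (log2 -1.73 ± 0.40, adjusted p = 0.0198), a call lost without any of the 4 libraries compared (adjusted p = 0.0575 to 0.131) and by DESeq2 (0.0857). MIR23AHG was the higher. It had 34.2 CPM at RBI2 10 min and 9.97 CPM at CX-5461 10 min (1.78 ± 0.25), and 35.9 and 11.3 CPM at 120 min (1.66 ± 0.25, adjusted p = 0.00692), with 18.7 CPM in control. The 2 control libraries held 404 and 153 reads, so the control mean of MIR23AHG depends on which of them is kept. The call at 120 min was lost without CX-5461 120 min replicate 2 (adjusted p = 0.0575) or either RBI2 120 min library (0.0557 and 0.0677).

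Genes beside the hosts on the chromosome were looked at for shared movement. The nearest tested neighbours of MIR222HG are LINC01204 and LINC02595. LINC02595, 76768 bases away, was called higher at RBI2 120 min (log2 1.06), where MIR222HG was lower, and neither passed at CX-5461 10 min (-0.10 and 0.11). The nearest tested neighbours of MIR17HG lie 1829215 bases (GPC6) and 3651414 bases (SLITRK5) away and changed by -0.06 and -0.53 at CX-5461 10 min, without being called. Next to MIR29B2CHG, CD34 and CD55 gave 0.51 and -0.55 at RBI2 120 min, also without being called. Beside MIRLET7BHG, PPARA measured 1.24 at RBI2 120 min and -2.17 at CX-5461 120 min, and WDR81, beside MIR22HG, 0.91 at RBI2 10 min (11 CPM in control and 20.9 CPM there), none of them called.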

How the data were processed

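Poly(A) RNA of 14 MDA-MB-231 libraries was sequenced. Per the submitters' processing notes and methods, the authors removed reads that aligned to the ribosomal DNA repeat with STAR 2.7.6a and assigned the rest with Salmon 1.3.0 to GRCh38 transcripts. The deposited tables give for each transcript an estimated count, a TPM value and 2 length columns, in bases, named by the authors as length and effective length. Counts were summed per gene through GENCODE 44 (225662 of 228754 transcripts matched, and the rest held 1.03 to 1.13% of reads) and rounded. CPM use TMM-scaled library totals.

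The fit was edgeR 4.0.16's quasi-likelihood test (R 4.3.3) with 7 groups, TMM scaling and filterByExpr at a minimum count of 10. P-values were adjusted by Benjamini-Hochberg over 15426 genes in each of 15 comparisons, two-sided. Prior work on these data was known when members, lists and tests were chosen. Other genes named are the 2 nearest in pattern to a host, the called genes of each list (at most 4 per list) and the nearest tested genes on each side, with overlapping genes. Alternatives were DESeq2 1.42.0 (without independent filtering), its size factors, no filter, a transcript-length offset, a replicate block, 4 libraries alone, unadjusted p and leaving out each library. The fit was tested on simulated counts. Replicate numbers were not taken as pairs in the main fit. Differences between replicates 1 and 2 had correlations of -0.179 to 0.18 over 21 pairs of groups. The labels do not say whether same-numbered libraries belong together. Sequences came from RefSeq tables. Figures used matplotlib 3.10.9.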

Additional observations from a re-analysis of the deposited data

Results flagged for a closer look

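Differences between the compounds are listed for 4 hosts. At 10 min MIR222HG was higher after RBI2 than after CX-5461 by 2.50 on the log2 scale and MIR17HG by 1.55, both given as descriptions, with no test, because these libraries bore on the choice of genes. At 120 min MIR17HG differed by 1.16 and MIR29B2CHG by 1.83, both by a test of the difference itself, with the losses on leaving out libraries given above. MIR22HG at 10 min (0.64) and MIR17HG at 30 min (0.42) were listed because in CPM both RBI2 libraries lay on one side of both controls and both CX-5461 libraries on the other. The first of these differences was not tested, and the other had an adjusted p of 0.634. In TPM neither pattern held. For MIR22HG the CX-5461 10 min libraries (18.6 and 18.6 TPM) lay between the controls (18.2 and 23.3 TPM), and the TPM values of MIR17HG are given above. No group is large enough for a check of single outlying samples.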

How the results depend on the processing

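The number of hosts called depended on the settings as follows. With no filter on low counts it was 1 in place of 0 for RBI2 10 min against control, CX-5461 30 min against control and RBI2 10 against 30 min. With unadjusted p it was 1 in place of 0 for RBI2 10 min, RBI2 30 min and CX-5461 30 min against control, RBI2 against CX-5461 at 30 min and RBI2 10 against 30 min. With DESeq2 it was 1 in place of 0 for CX-5461 30 min against control. With the length offset it was 0 for RBI2 120 min against control (from 1) and 0 for RBI2 120 against 10 min (from 3). With only the 4 libraries of a comparison it was 0 for RBI2 120 min, CX-5461 10 min and CX-5461 120 min against control (from 1, 2 and 1) and 1 for RBI2 10 against 30 min (from 0). The cause of these shifts was not tested.

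Leaving out each library in turn, the counts ran from 0 to 1 for RBI2 10 min, 0 to 1 for RBI2 30 min, 0 to 3 for RBI2 120 min, 0 to 2 for CX-5461 30 min and 0 to 1 for CX-5461 120 min against control. RBI2 against CX-5461 gave 0 at 30 min and 0 to 3 at 120 min. RBI2 10 against 30 min gave 0 to 1, RBI2 120 against 30 min 0, RBI2 120 against 10 min 0 to 3 and CX-5461 120 against 30 min 0. For the comparisons that hold the CX-5461 10 min libraries, which bore on the choice of hosts, the counts are no test and no sign of stability: 2 to 3 against control, 1 to 2 against RBI2, 2 to 3 against CX-5461 30 min and 1 to 2 against CX-5461 120 min. The lone library left in a group was assumed to vary like the other groups. A tally was made over 65 pairs of a host and a comparison. It covers the other settings as well as the left-out libraries. Single values kept their direction and side of the limits in 1229 cases, lost the call in 42, gained it in 25 and changed sign in 3. Those 3 were all of MIRLET7BHG against control. RBI2 30 min gave -0.20 and CX-5461 30 min -0.42 without control replicate 2, against 1.63 and 1.39 without replicate 1. CX-5461 10 min gave 0.13 without control replicate 1, against -1.69 without replicate 2. The 65 pairs include comparisons that hold the CX-5461 10 min libraries, so this tally is a description and no sign of stability. In the other 40 pairs, none called in any setting, 20 changed sign in at least 1 setting, most often those of MIR210HG and MIR22HG.

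With the replicate block the count of hosts stayed the same in 14 comparisons and was 2 in place of 3 for RBI2 120 against 10 min, where MIR29B2CHG had an adjusted p of 0.0508. The replicate numbers do not pair the samples, so this is no measure of a weaker effect. The order of the hosts by level was the same by CPM per kilobase and by deposited TPM (0 hosts changed place). Both use the same effective lengths and differ only by a factor per library, so this sameness is no check of the order. Depth limits MIR210HG, MIR29B2CHG and, at CX-5461 10 min, MIR17HG, at 6 to 78 reads a library. It also limits MIRLET7BHG, at 19 reads in control replicate 2, 22 and 24 at RBI2 10 min and 30 and 31 at CX-5461 10 min.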
